A study of Mus musculus with 6 samples.

Results

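In mouse neural progenitors carrying an Nr6a1 virus, 380 accessible intervals had clearly fewer ATAC-seq fragments than in progenitors carrying a control virus. They were chosen from 52223 intervals by measured values. An interval had to lie on chromosomes 1 to 19, which 51110 did, and to hold a mean of at least 30 fragments in the control libraries, which left 35618, here called eligible. Every Nr6a1 library then had to lie below every control library in CPM (the interval's count scaled to the library's total over all intervals), and the log2 ratio of the 2 group means had to be at most -0.6. The 380 are 1.07% of the eligible intervals. Their ratio and the separation of the groups were used to choose them, so both are described without a test.

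The study had 6 libraries from mouse embryonic stem cells differentiated towards neural progenitors, 3 labelled mScarlet and 3 labelled Nr6a1OE. All received basic FGF from plating, 5 µM CHIR99021 (an inhibitor of the kinase GSK3) on day 2, 100 nM retinoic acid with 10 nM Smoothened agonist (SAG) from day 3, and SAG without retinoic acid from day 5. On day 5 the mScarlet cells received a lentivirus for the red fluorescent protein mScarlet3, whose genotype label is Control. The Nr6a1OE cells received one for Nr6a1 joined to mScarlet3 by a 2A peptide, which separates the proteins as they are made. On day 9, fluorescent cells of both groups were sorted, and 50000 entered each library, so every cell measured had taken up virus and the levels are means over a sorted population. Whether the libraries within a group were grown as separate cultures is not said in the labels, and the spread between them may be technical. They also do not name the promoter that drives the viral gene.

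Nr6a1 (germ cell nuclear factor, GCNF) belongs to the nuclear receptors with no known ligand, acts mainly as a repressor and silences pluripotency genes when embryonic stem cells differentiate. It binds DNA at direct repeats of the letters AGGTCA with no spacer, and at the extended single site TCAAGGTCA. In ATAC-seq the Tn5 transposase cuts open chromatin. Strong signals usually mark promoters, whereas weaker ones far from genes include enhancers, whose opening differs most between cell types and developmental stages.

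Sequence could be read only where an interval overlay a RefSeq promoter window of the GRCm38.p6 assembly, which has the coordinates of mm10. A window runs from 250 bases before a transcript's start to 50 after it. Of the 380 intervals 6 (1.58%) overlay such a window, against 10939 of the 35618 eligible intervals (30.7%). All 6 windows belong to genes annotated as long noncoding RNAs. The 4 below show what this small promoter group looks like: both with a match to the receptor's letters, the one with the most negative ratio and one without a match that lay wholly inside its interval. Each is written 5′ to 3′ on the gene's own strand, and capitals mark the matched letters.
Gm31515, plus strand, chr1:133859447-133859746: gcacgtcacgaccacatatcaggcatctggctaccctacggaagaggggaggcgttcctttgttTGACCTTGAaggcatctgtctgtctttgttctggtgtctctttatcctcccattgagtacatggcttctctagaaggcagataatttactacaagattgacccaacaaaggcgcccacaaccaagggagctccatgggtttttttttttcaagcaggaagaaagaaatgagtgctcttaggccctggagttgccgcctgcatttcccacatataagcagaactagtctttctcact
Gm40093, minus strand, chr3:93597455-93597754: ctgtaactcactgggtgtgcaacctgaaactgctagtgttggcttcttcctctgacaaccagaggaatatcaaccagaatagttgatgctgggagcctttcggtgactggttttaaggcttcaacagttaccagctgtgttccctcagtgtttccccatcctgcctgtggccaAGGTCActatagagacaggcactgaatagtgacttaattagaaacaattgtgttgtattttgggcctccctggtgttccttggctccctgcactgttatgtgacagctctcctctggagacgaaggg
Gm31135, minus strand, chr8:8484679-8484978: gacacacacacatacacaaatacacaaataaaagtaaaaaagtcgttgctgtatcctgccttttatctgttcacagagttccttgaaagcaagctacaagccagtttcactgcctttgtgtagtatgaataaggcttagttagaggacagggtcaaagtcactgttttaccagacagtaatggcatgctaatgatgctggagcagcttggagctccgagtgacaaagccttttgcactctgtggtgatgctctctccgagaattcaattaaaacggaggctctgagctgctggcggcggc
Celrr, plus strand, chr1:121087155-121087454: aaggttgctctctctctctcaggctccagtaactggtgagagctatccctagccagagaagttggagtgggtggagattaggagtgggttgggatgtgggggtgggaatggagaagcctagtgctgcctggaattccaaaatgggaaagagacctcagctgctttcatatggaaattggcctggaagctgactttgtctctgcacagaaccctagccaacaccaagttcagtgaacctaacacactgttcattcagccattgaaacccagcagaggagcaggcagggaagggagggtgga

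The windows were searched on both strands for TCAAGGTCA, for AGGTCA (which the longer motif contains) and for 2 copies of AGGTCA in direct repeat with no spacer. Only exact matches were counted, so sites that differ by a letter are not recorded. Gm31515 holds TCAAGGTCA on the strand opposite to the gene, at bases 65 to 73 of the printed sequence, whose first base lies 186 bases before the start. Gm40093 holds AGGTCA on the gene's strand at bases 174 to 179. Gm31135, Celrr, Gm35725 (inside Nbas) and 4930480C01Rik (inside Chrna9, where only 36 bases of the window lie in the interval) hold no exact match to the 3 motifs in this window. Over all 32851 windows, TCAAGGTCA is found in 139 (0.423%), AGGTCA in 5340 (16.3%) and the direct repeat in 2. Eligible intervals over a window with TCAAGGTCA numbered 27, with a median log2 ratio of -0.04, and those over a window with AGGTCA numbered 1430, with a median of -0.0019. A match in these letters is a description of the window and not of binding.

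At Gm31515 the interval (133859142 to 133860252) held 13.5, 11.5 and 13.3 CPM in mScarlet 1, 2 and 3, and 8.24, 7.37 and 7.32 CPM in Nr6a1OE 1, 2 and 3. Its log2 ratio was -0.74. At Gm40093 the values were 8.98, 8.02 and 9.09 CPM against 5.97, 4.82 and 4.80 CPM (log2 ratio -0.74). Both groups are tight here, and the lowest control stands well above the highest Nr6a1OE library. The interval at Gm31135, 132 kb from the ephrin ligand gene Efnb2, held 12.5, 14.9 and 13.8 CPM against 5.69, 7.23 and 8.08 CPM (log2 ratio -0.97). Celrr had 18.9, 22.2 and 21.9 CPM against 11.9, 13.0 and 13.8 CPM (log2 ratio -0.70). The other 374 intervals have no window in that table and are described by position alone.

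Library depth was alike in both groups, at 6857763 to 8030029 fragments in intervals. Among markers of the labelled cell type, the strongest interval at a gene end of Sox1, Sox2, Hes5 and Nes held 133, 113, 82.1 and 88.2 CPM in mScarlet, and of Sox3, Pax6 and Fabp7 62.0, 27.3 and 26.2 CPM. The embryonic stem cell genes Pou5f1 and Zfp42 had no interval at a gene end, and Nanog had 2.70 CPM. These values are accessibility, not expression. Of the lists for other cell types, 10 of 11 neural crest, 10 of 15 mesoderm and muscle, 3 of 11 endothelium and blood, 6 of 9 endoderm and 18 of 18 post-mitotic neuron genes had an interval at a gene end. The median over each list, with genes lacking one at 0, was 37.5, 12.1, 0, 38.0 and 23.5 CPM, and the highest 55.3, 83.8, 42.0, 70.9 and 86.1 CPM. None of the 380 intervals lay at an end of any of these marker genes. In a sorted population, fewer cells of a type and less opening per cell cannot be told apart.

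The 380 intervals together took 0.333% ± 0.00382 of the fragments in mScarlet (0.329 to 0.337%) and 0.190% ± 0.00225 in Nr6a1OE (0.189 to 0.193%; SD, n = 3 each). Summed over the intervals this was 3327 ± 38.2 CPM against 1903 ± 22.5 CPM. Relative to the mScarlet mean, the median interval stood at -0.81, -0.78 and -0.78 on the log2 scale in Nr6a1OE 1, 2 and 3. The rule sets the order of the groups in these values, which are a description. Each library was the lowest or the highest of its own group in 115 to 136 of the intervals. No interval was at 0 in any library, and the smallest mean count in Nr6a1OE was 11.

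**Figure D1:**
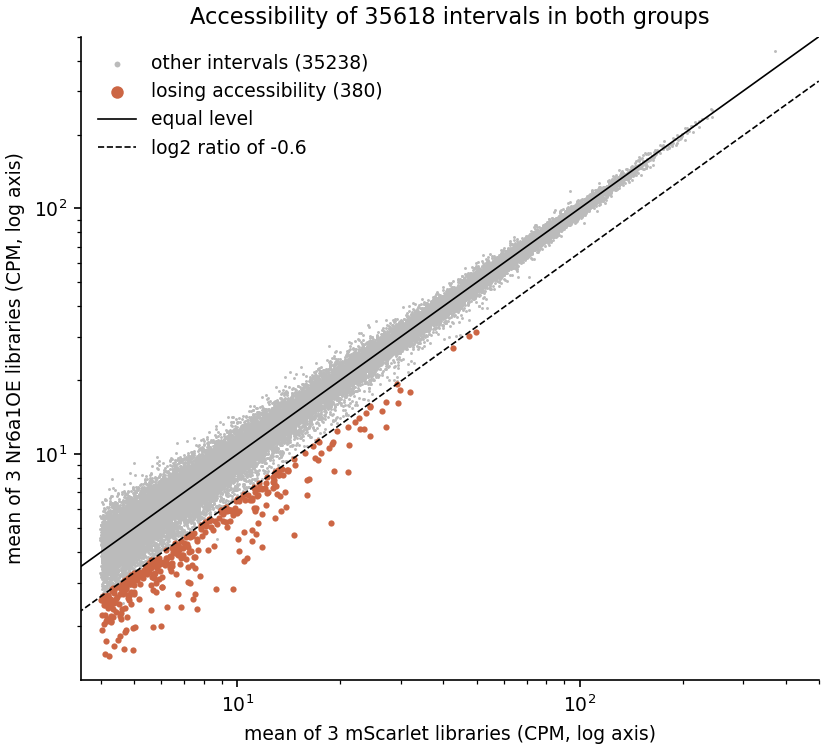
Mean CPM in the 3 Nr6a1OE libraries (vertical, log axis) against the mean in the 3 mScarlet libraries (horizontal, log axis) for the 35618 eligible intervals. The 380 chosen intervals lie below the dashed line of a log2 ratio of -0.6, mostly at the weak end of the mScarlet range, with 13 at or below -1.5.

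Most of the losses were partial. The log2 ratio ran from -1.84 to -0.60 with a median of -0.74 (quartiles -0.91 and -0.66). The median interval kept 59.9% of its mScarlet level, and the most reduced kept 27.8%. A ratio of -1 or lower was reached by 68 intervals, -1.5 or lower by 13, and 238 lay above -0.8. The standard error of a log2 ratio from counting alone had a median of 0.20 (0.0699 to 0.292), so intervals near the limit differ from it by less than their counting error. Just inside the limit were intervals in Fank1, Tmem117 and Cdkl4 (all -0.60), and just outside were intervals in Magi1, Tmtc1 and Jazf1. At the count limit, intervals near Trim29 and in Nedd9 entered with a mean of 30 fragments, and intervals in Npas3 and Vcl stayed out with 29.7.

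In each direction the condition that the groups not overlap was met by many more intervals than the ratio limit. It was met by 3196 eligible intervals with Nr6a1OE lower (8.97%), and by 2800 with Nr6a1OE higher. The ratio limit alone was met by 409, of which 29 were removed because the groups overlapped. The same rule mirrored gave 30 intervals with more accessibility in Nr6a1OE, with ratios of 0.60 to 0.89. That count is held down by the limit of 30 fragments in mScarlet, the group where such intervals are low. With the limit set on Nr6a1OE instead, an alternative added after the data were seen, the mirrored rule gave 155 intervals of 35657, with ratios of 0.60 to 1.05. In the edgeR quasi-likelihood fit over 51637 intervals, 652 were lower in Nr6a1OE at an adjusted p under 0.05 (1.26%) and 242 higher. Of the 380 intervals 281 were among the 652. That overlap carries no weight, since the rule used the same contrast. DESeq2 called 97 lower, 77 of them among the 380.

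A ratio free of the choice was obtained by applying the rule to 2 libraries of each group and reading the pair of libraries left out, one from each group. With number 1, 2 or 3 left out, 580, 627 and 494 intervals were chosen, each set with a median log2 ratio of -0.74 in the libraries that chose it. In the libraries left out the medians were -0.47, -0.39 and -0.47. The ratio was below 0 in 83.1%, 80.1% and 83.2% of the chosen intervals, against 49.4%, 49.8% and 49.4% of all eligible intervals, whose medians were 0.0032, 0.0007 and 0.0036. It was at or below -0.6 in 237, 210 and 200. The ratios of -0.74 and lower printed for chosen intervals are therefore larger than those seen in libraries that took no part in the choice. With 4 libraries more intervals met the limits than with 6, and 320, 301 and 292 of the 380 were among those chosen.

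**Figure D2:**
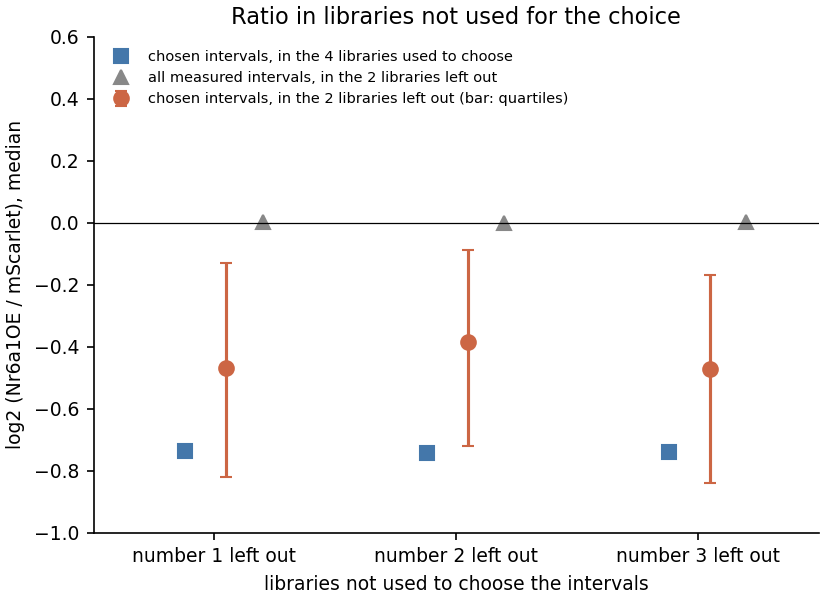
Median log2 ratio of Nr6a1OE to mScarlet (vertical) for intervals chosen without library number 1, 2 or 3 (horizontal), in the 4 libraries used (squares) and in the 2 left out (circles, bars from the lower to the upper quartile), with all eligible intervals as triangles. Medians in the libraries left out lie between -0.47 and -0.39, shallower than the -0.74 in the choosing libraries and below the medians near 0 of all eligible intervals.

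The intervals were weak and short in control progenitors. Their median level in mScarlet was 6.61 CPM (3.99 to 49.8), against 13.2 CPM for all eligible intervals, and their median length was 921 bp against 1197 bp. Per kilobase they held 7.87 CPM against 12.5. The 30 intervals of the mirrored rule were weak too, with a median of 4.76 CPM in mScarlet. A mean count under 60 was seen in 237 of the 380, and a count of at least 100 in 47, whereas 17634 of the 35618 eligible intervals reached 100. Counting error is larger for weak intervals, and its part in these shares was not tested. The share chosen was 2.77% of eligible intervals under 500 bp, 1.82% at 500 to 1000 bp, 0.867% at 1000 to 1500 bp and 0.411% at 1500 to 2500 bp. Of 1105 intervals longer than 2500 bp 0 were chosen (exact 95% upper limit 0.333%).

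Across the 380 intervals, which share the 6 libraries and are cut off by the rule at a ratio of -0.6 and a count of 30, Spearman's correlation of the log2 ratio was 0.03 with the mScarlet level, 0.06 with the length and 0.03 with the distance to a gene end (n = 380). The limits shape these values, so no relation is read from them.

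Loss lay almost wholly away from promoters. Only 7 of the 380 intervals (1.84%, exact 95% interval 0.744 to 3.76%) lay within 1 kb of an end of a protein-coding gene, against 35.6% of the eligible intervals. Inside a gene lay 186 (48.9% against 33.4%), and between genes lay 187 (49.2% against 31.0%). Beyond 1 kb from a gene end, the split between inside and between genes was near that of all eligible intervals, with 49.9% against 51.9% inside. Of the 30 intervals of the mirrored rule, 1 lay at a gene end (3.33%, 0.0844 to 17.2%), 15 inside genes and 14 between genes. A low share at gene ends was thus seen in both directions. RefSeq positions used here give no exons, so the place inside a gene is not resolved further.

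The intervals were also remote. Their median distance to the nearest gene end was 52.8 kb against 6.66 kb. For those inside genes it was 50.9 kb against 19.6 kb, and for those between genes 64.9 kb against 27.2 kb. More than 100 kb from any protein-coding gene end lay 125 intervals (32.9%, 28.2 to 37.9%), against 11.5% of the eligible ones, and more than 500 kb lay 9 (2.37% against 0.991%). With noncoding genes counted as well, 8.95% lay beyond 100 kb of any gene end, against 2.41% of the eligible ones. Counted once per interval, the genes that held an interval had a median length of 214 kb against 110 kb. For 35 of the 186 intervals inside a gene (18.8% against 10.4%) that gene was longer than 500 kb. A gene that held several intervals was counted for each. The 30 intervals of the mirrored rule had a median distance of 24.5 kb, and 4 of them (13.3%, 3.76 to 30.7%) lay beyond 100 kb.

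Position and strength go together, since gene-end intervals are the strong ones, so the share chosen was also read within classes of strength. Among intervals with a mean mScarlet count of 30 to 60, it was 0.272% within 1 kb of a gene end (3 of 1103), 1.09% at 1 to 10 kb, 1.91% at 10 to 50 kb, 2.41% at 50 to 100 kb and 4.11% at 100 to 500 kb (79 of 1924). At counts of 60 to 120 the shares in the same order were 0.241%, 0.598%, 1.56%, 2.68% and 2.89%. At counts of 120 and over they were 0.00967% (1 of 10336), 0.139%, 0.612%, 1.37% and 0.887%. Within every class the lowest share was at gene ends. The top class has no upper limit and holds 10336 of the 12682 gene-end intervals, so strength is not held equal within it. Between 50 to 100 kb and 100 to 500 kb the exact intervals overlap in every class. Beyond 500 kb the classes held 5, 3 and 1 chosen intervals.

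**Figure D3:**
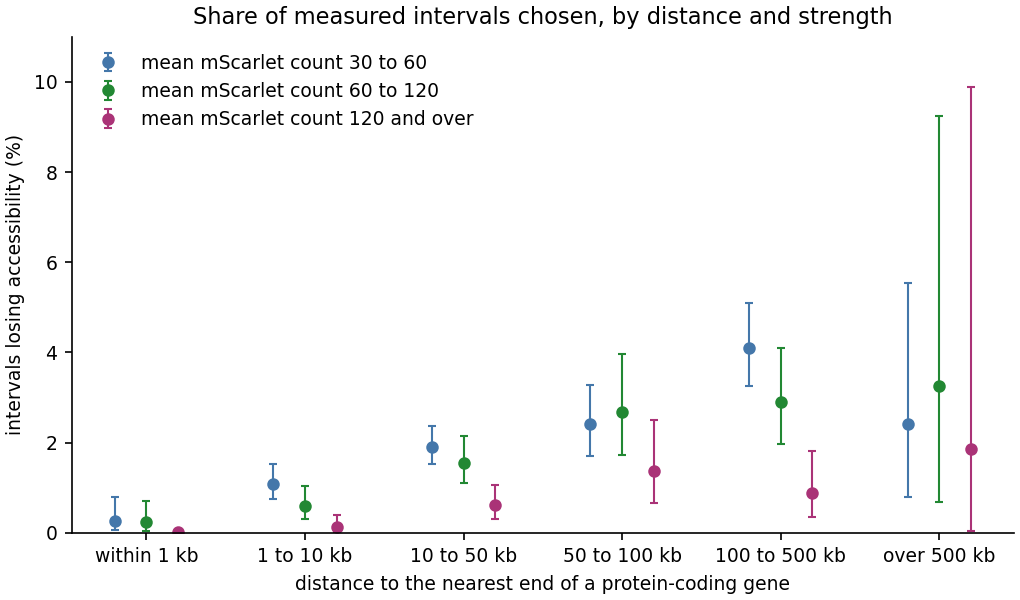
Share of eligible intervals chosen (vertical, percent) by distance to the nearest end of a protein-coding gene (horizontal), in 3 classes of mean mScarlet count, with exact 95% intervals that cover counting error only. In the class of 30 to 60 fragments the share runs from 0.272% within 1 kb to 4.11% at 100 to 500 kb, and the gene-end share is the lowest in each class.

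The 7 intervals at gene ends were of modest strength apart from one. At Aifm2, which encodes an oxidoreductase that protects lipids from oxidation, the interval spanning a gene end held 26.5, 19.5 and 25.3 CPM in mScarlet and 16.1, 14.5 and 13.6 CPM in Nr6a1OE (log2 ratio -0.69). The lowest control, mScarlet 2, stood nearer to the Nr6a1OE libraries than the others did. At Alg8, a glucosyltransferase gene of N-glycan assembly, an interval 0.08 kb from one end held 5.04, 6.71 and 4.98 CPM against 2.56, 2.41 and 2.02 CPM (log2 ratio -1.26). The interval that spans an end of Alg8 itself did not share this, at 29.1 ± 1.68 CPM against 29.8 ± 1.93 CPM (SD, n = 3 each). The other 5 lay by the MHC class II gene H2-Eb2 (-1.17), Adamtsl1 (-1.03), Uchl4 inside Map2k1 (-0.84), Gm7244 (-0.80) and the sterol transporter gene Abcg5 (-0.79).

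The 15 lowest ratios ran from -1.84 to -1.49. They comprised 3 intervals inside genes and 12 between genes, 7 of the latter more than 100 kb from a gene. The lowest was inside Pou2f1 (chr1:165966173-165967254), the gene of the octamer-binding factor Oct-1. It held 19.6, 18.1 and 18.6 CPM in mScarlet 1, 2 and 3 against 5.40, 6.09 and 4.16 CPM in Nr6a1OE 1, 2 and 3. The groups are far apart, and no library of either stands alone. The nearest eligible interval, 34.1 kb away and spanning an end of the gene, held 99.0 ± 5.53 CPM against 93.7 ± 5.69 CPM (log2 ratio -0.08). The loss was thus at one element of Pou2f1, while the other 4 eligible intervals assigned to the gene had ratios of -0.11 to 0.34.

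An interval inside the collagen gene Col12a1 (chr9:79605623-79606414) held 9.94, 10.1 and 9.22 CPM against 1.85, 2.55 and 4.04 CPM (log2 ratio -1.79). An interval 423 kb from Pabpc4l (chr3:46870713-46871388), of the poly(A)-binding protein family, held 6.53, 6.42 and 9.96 CPM against 1.99, 2.13 and 2.90 CPM (log2 ratio -1.71). Here mScarlet 3 was well above the other controls. An interval 115 kb from the metallophosphoesterase gene Mpped2 (chr2:106577856-106578564) held 14.4, 15.9 and 13.4 CPM against 5.40, 3.97 and 4.67 CPM (log2 ratio -1.64). The end of Mpped2 itself was near equal, at 97.5 ± 1.52 CPM against 97.0 ± 4.32 CPM.

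Low levels set the limit for several of the others. The interval 48.2 kb from the sorting nexin gene Snx19 held 4.08, 4.67 and 6.10 CPM against 1.99, 1.42 and 1.39 CPM (log2 ratio -1.63), and its mean counts were 37 and 11.7 fragments. An interval 64.9 kb from the sulfotransferase gene Ust held 4.90, 5.10 and 3.99 CPM against 1.42, 2.27 and 1.14 CPM (log2 ratio -1.54). At 5.94 kb from Mab21l3 the values were 4.63, 4.52 and 3.49 CPM against 1.14, 1.98 and 1.39 CPM (log2 ratio -1.49). These 3 rested on means of 11 to 11.7 fragments in Nr6a1OE, so their counting error is among the largest. An interval 10.6 kb from Zdhhc13, which encodes a palmitoyltransferase, held 6.12, 4.37 and 6.48 CPM against 2.42, 1.13 and 2.40 CPM (log2 ratio -1.51).

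The remaining 7 lay 551 kb from the aldo-keto reductase gene Akr1e1 (-1.61), 150 kb from Cyria (-1.58), 152 kb from the endothelial sialomucin gene Emcn (-1.53), inside the nuclear factor gene Csrnp3 (-1.52), 278 kb from the cell polarity gene Pard3 (-1.51), 236 kb from the neuregulin receptor gene Erbb4 (-1.51) and 22.1 kb from the prolyl hydroxylase gene Egln3 (-1.495). At Egln3 the libraries were closest to each other, with 12.1, 12.1 and 11.1 CPM against 4.12, 4.11 and 4.29 CPM. At Erbb4 the values were 9.80, 10.2 and 11.3 CPM against 2.70, 4.68 and 3.66 CPM. In both cases every Nr6a1OE library was below 5 CPM and every mScarlet library above 9 CPM.

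**Figure D4:**
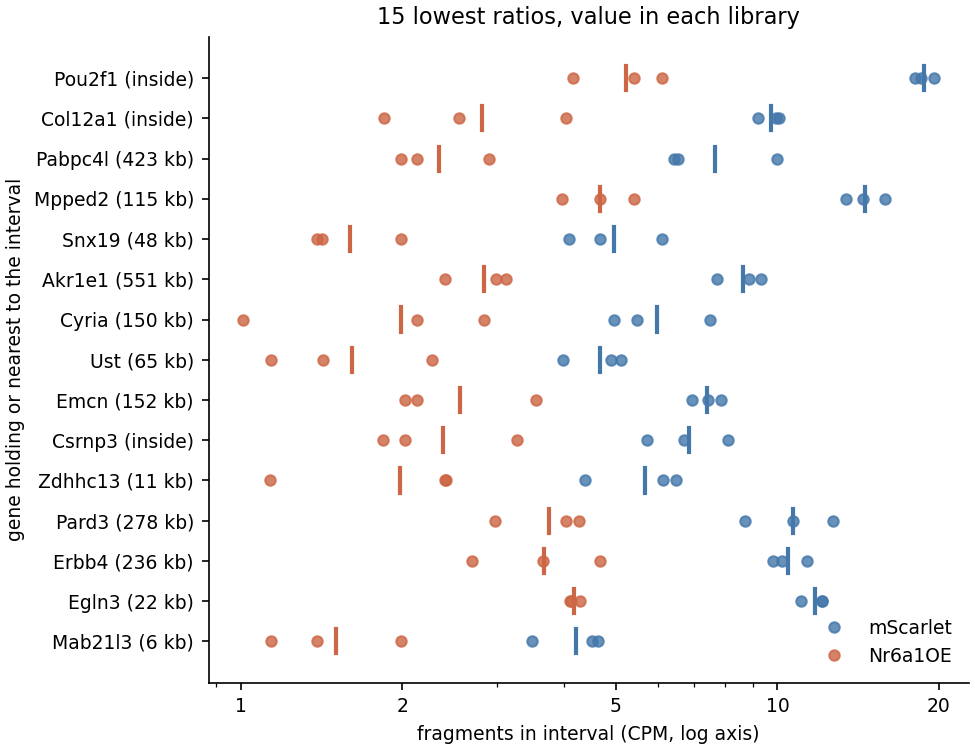
CPM in each library (points, log axis) for the 15 intervals with the lowest log2 ratio, named by the gene that holds them or lies nearest, with the distance in kb, where vertical bars mark the group means. The groups are apart at every interval because the rule required it, and the widest separations are at Pou2f1, Mpped2 and Egln3.

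The intervals next to these 15 did not share the size of the change. The nearest eligible interval lay 2.55 to 431 kb away, and in 14 cases it was not itself chosen. Those 14 had ratios of -0.42 to 0.16, with 10 of them below 0. For 12 of the genes an eligible interval spanned a gene end, with 11.5 to 149 CPM in mScarlet and log2 ratios of -0.10 to 0.11. Over all 380, the nearest eligible interval had a median log2 ratio of -0.05 against 0.0017 around intervals not chosen, and it was below 0 in 63.4% against 49.4%. At a distance of up to 10 kb, where 96 of the chosen intervals had a neighbour, the median was -0.07 and 65.6% were below 0, against 45.6%. Neighbours that were themselves chosen, 15 of the 380, are included in these values, and the rule fixed their sign. The neighbours compared were not matched for strength. A fragment is counted in every interval it overlaps, so neighbours could share one that spans the gap between them. For the chosen intervals that gap was at least 0.581 kb, and the extent of such sharing was not tested.

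Gene ends of the assigned genes were near equal in both groups. A chosen interval lay inside or within 100 kb of 283 genes, and 199 of these had an eligible interval spanning a gene end. The median log2 ratio of those was -0.0057 with 54.3% below 0, against 0.00019 and 49.9% over 10563 genes with such an interval. Accessibility of a promoter is not expression, which these files do not measure.

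The strongest of the chosen intervals had ratios close to the limit. Inside Erc2, which encodes a scaffold protein of the presynaptic active zone, an interval held 45.9, 49.4 and 54.2 CPM against 30.7, 34.7 and 29.0 CPM (log2 ratio -0.66). Inside Srgap3, a GTPase-activating protein of the Slit-Robo pathway, the values were 44.9, 49.0 and 48.9 CPM against 30.8, 29.1 and 30.5 CPM (log2 ratio -0.66). At 167 kb from the zinc finger gene Zfp608 they were 39.9, 45.1 and 42.8 CPM against 22.7, 29.8 and 28.4 CPM (log2 ratio -0.66). The lowest control is above the highest Nr6a1OE library by at least 10 CPM in each. Chrna9, a nicotinic acetylcholine receptor gene, and Trim29 had the next strongest, at 31.9 ± 4.00 and 29.9 ± 1.80 CPM in mScarlet against 17.9 ± 1.01 and 18.2 ± 1.68 CPM in Nr6a1OE (log2 ratios -0.83 and -0.71).

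The 380 intervals were assigned to 341 genes, by the gene that holds an interval or else the nearest one. Of these, 314 had 1 interval, 18 had 2 and 9 had 3 or more. Nrxn3, a very long gene for a presynaptic adhesion protein, held 4 of the intervals among its 24 eligible ones, all inside the gene and spread over 1079 kb. The lowest (chr12:88800914-88802033) held 7.49, 5.83 and 6.85 CPM against 2.13, 2.69 and 3.28 CPM (log2 ratio -1.31), and the other 3 had ratios of -0.69 to -0.61. Of the 20 intervals of Nrxn3 that were not chosen 14 had a ratio below 0, with a median of -0.06, where 49.8% of all eligible intervals were below 0. The interval spanning an end of Nrxn3 held 7.78 ± 1.08 CPM against 8.28 ± 0.348 CPM.

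Around Cdh11, a type II cadherin gene, 4 of 17 eligible intervals were chosen, 1 inside the gene and 3 between 28.2 and 526 kb from it, with ratios of -0.81 to -0.60. The one nearest to the gene on its outside held 12.7, 12.2 and 13.2 CPM against 7.68, 7.94 and 6.18 CPM, a narrow spread in both groups. Of the 13 intervals of Cdh11 not chosen 6 were below 0, with a median of 0.07. Prkd1, which encodes a protein kinase of the D family, had 4 of 9, with ratios of -1.13 to -0.63. Of the 5 not chosen 3 were below 0, with a median of -0.03. The lowest held 7.08, 7.00 and 8.47 CPM against 3.13, 3.54 and 3.66 CPM.

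Robo2, a receptor for Slit proteins in axon guidance, had 3 of 14 eligible intervals chosen, all inside the gene (-0.91, -0.80 and -0.63), and 8 of the 11 not chosen were below 0, with a median of -0.12. At the lowest of these (chr16:74321911-74323057) Nr6a1OE 1, at 8.10 CPM, came close to mScarlet 1, at 9.39 CPM. At the second (chr16:74338665-74339606) the groups were further apart, with 16.1, 16.8 and 17.7 CPM against 8.96, 9.21 and 10.9 CPM. Adamtsl1, a gene for a secreted ADAMTS-like protein, held 3 of 9 (-1.03 to -0.71), and Cyria, whose product binds Rac1, had 3 of 10 nearby (-1.58 to -0.64). The carbonic anhydrase-related gene Car10 had 3 of 8 (-0.76 to -0.69), and 1700113H08Rik had 3 of 11 (-1.25 to -0.83). Tenm3, a teneurin adhesion gene, also had 3 (of 32), and since only 8 genes were to be named it was added after its values were seen. Of the intervals not chosen, 3 of 6 were below 0 at Adamtsl1, 3 of 7 at Cyria and 3 of 5 at Car10. At 1700113H08Rik it was 4 of 8, and at Tenm3 17 of 29.

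Along the chromosomes the intervals lay in sparser surroundings than most. Their nearest interval of any kind was at a median of 14.6 kb, against 9.08 kb for all eligible intervals. They had a median of 5 other intervals within 100 kb against 8, and 25 of them (6.58% against 2.49%) had none. The nearest other chosen interval was at a median of 2007 kb. Another chosen interval lay within 10 kb of 6 (1.58%), within 100 kb of 29 (7.63%) and within 1000 kb of 135 (35.5%). Of the eligible intervals not chosen, 0.324%, 3.92% and 28.4% had one within these distances. The nearest eligible interval was itself chosen in 15 cases (3.95%), against 0.968% around intervals not chosen.

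**Figure D5:**
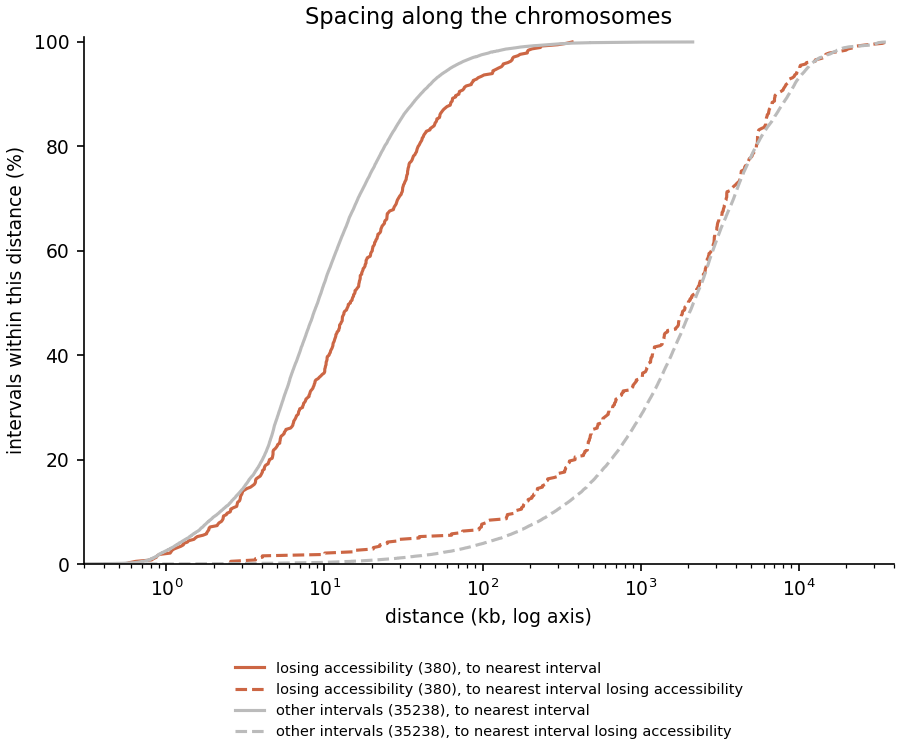
Cumulative share of intervals (vertical, percent) whose nearest interval of any kind (solid) or nearest chosen interval (dashed) lies within a distance (horizontal, kb, log axis), for the 380 chosen and the 35238 other eligible intervals. The chosen intervals stand further from their neighbours, at a median of 14.6 kb, and the dashed curves part mainly below 1000 kb.

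The closest pairs each lay at one gene with no interval between them. Near Cyria, intervals 2.55 kb apart (chr12:12527552-12528759 and chr12:12531310-12532432) started from like levels, 5.59 and 5.97 CPM in mScarlet, and had unlike ratios of -0.64 and -1.58. At the first, mScarlet 3 with 4.61 CPM came close to Nr6a1OE 1 with 3.98 CPM. Near Mef2c, a transcription factor gene of neurons and muscle, intervals 3.66 kb apart and 213 and 218 kb from the gene had ratios of -1.26 and -1.08. The stronger of the 2 (chr13:83879875-83881098) held 12.1, 10.1 and 11.8 CPM against 7.25, 3.54 and 3.41 CPM, so that Nr6a1OE 1 stood above its group and below every control. Of the 15 eligible intervals assigned to Mef2c that were not chosen 12 were below 0, where 49.8% of all eligible intervals were.

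All 19 chromosomes held some of the intervals. The share chosen was highest on chromosome 12 (27 of 1484, 1.82%), 3 (27 of 1666, 1.62%) and 6 (32 of 2205, 1.45%), and lowest on 11 (15 of 3013, 0.498%) and 15 (9 of 1434, 0.628%). All eligible intervals of chromosomes 11 and 6 were shifted too, with median log2 ratios of 0.06 and -0.04. With each chromosome's median removed, 371 intervals were chosen, 368 of them the same.

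Gene lists were read for intervals inside or within 100 kb of a listed gene. Of 22 lists with 449 genes, 10 held at least one of the 380 intervals, 32 intervals at 24 genes in all. Axon guidance genes had 10 chosen of 232 eligible intervals (4.31%), the cadherin and protocadherin list 5 of 76 (6.58%), the post-mitotic neuron list 6 of 112 (5.36%) and the glutamate and GABA receptor list 3 of 83 (3.61%), beside 1.07% over all eligible intervals. These lists hold long genes, and 36.1 to 52.7% of their eligible intervals lay more than 50 kb from a gene end, against 20.5% of all. If each interval had the share chosen of its own class of distance and strength, the axon guidance list would hold 3.97 chosen intervals, cadherins 1.13, post-mitotic neurons 2.00 and receptors 1.28. On the same footing the Hox list would hold 0.36, dorsoventral patterning 1.31 and Wnt and FGF signalling 1.43, where 2, 0 and 0 were chosen. The first 4 are the lists with the highest shares of the 22, all lists were written with earlier results of these data known, and the values are a description with no test.

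The median log2 ratio over all eligible intervals of these lists was close to 0, at -0.02 for axon guidance, -0.0013 for cadherins, -0.07 for post-mitotic neurons and -0.03 for receptors, beside 0.00055 over all. Over all intervals tested by edgeR, 13 axon guidance intervals of 355 passed as lower and 1 as higher, beside 1.26% lower over all. As lower passed 8 of 120 cadherin (6.67%), 6 of 165 post-mitotic neuron (3.64%) and 2 of 149 receptor intervals (1.34%, near the share over all). DESeq2 called 2 axon guidance, 1 cadherin, 1 post-mitotic neuron and 0 receptor intervals lower. As higher passed 0 in these 3 lists, in edgeR and in DESeq2, with 3, 6 and 7 at an unadjusted edgeR p under 0.05.

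Among axon guidance genes, the lowest ratio was inside the netrin receptor gene Unc5c (chr3:141691799-141692480), with 3.81, 5.69 and 4.11 CPM against 1.56, 1.98 and 1.89 CPM (log2 ratio -1.32). An interval inside the semaphorin gene Sema6a held 16.5, 15.5 and 16.8 CPM against 7.11, 7.09 and 9.59 CPM (log2 ratio -1.03), with wide separation at a higher level. The other intervals of this list lay in Robo2 (3, described above) and Robo1 (2), inside the Eph receptor gene Epha3, inside Sema3e and near Sema3c, with ratios of -0.69 to -0.60 outside Robo2.

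Of genes of adhesion and synapses, an interval 23.0 kb from the protocadherin gene Pcdh9 held 5.17, 3.50 and 4.73 CPM against 1.71, 2.55 and 1.01 CPM (log2 ratio -1.35). Others lay 3.33 kb from the epithelial cadherin gene Cdh1 (-0.81) and 28.9 kb from Rbfox3 (-0.78), which encodes the neuronal splicing factor NeuN. Among receptor genes, an interval lay near Gabrg1 (-0.67), which encodes a GABA receptor subunit, and another inside Grin2b (-0.68), which encodes an NMDA receptor subunit. The one at Grin2b was the stronger, at 14.6, 13.1 and 11.7 CPM against 6.82, 9.49 and 8.33 CPM. The interval spanning an end of Gabrg1 was also lower, at 25.9 ± 1.64 CPM against 21.0 ± 1.14 CPM (log2 ratio -0.30). The interval spanning an end of Grin2b had a log2 ratio of -0.09.

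The lists of progenitor identity and patterning had 0 to 2 chosen intervals each, where their size would give about 1 at the share of 1.07% over all. The progenitor list had 1 of 84, 77.8 kb from Sox2 (chr3:34571552-34572174), with 5.99, 7.29 and 6.85 CPM against 3.27, 4.25 and 4.67 CPM (log2 ratio -0.72). The other 27 eligible intervals assigned to Sox2 had ratios of -0.48 to 0.35, and the interval at its end held 113 ± 7.95 CPM against 112 ± 2.22 CPM. The late temporal and gliogenic list had 1 of 112, 4.86 kb from Nfib (-0.85), a gene of the nuclear factor I family, and the retinoid and orphan receptor list 1 of 123, 6.02 kb from the retinoic acid synthesis gene Aldh1a1 (-0.999). The Hox list had 2 of 105. One lay inside Hoxa3 with Hoxa4 as the nearest gene end (chr6:52194451-52195128), at 30.2, 30.3 and 27.4 CPM against 21.5, 18.3 and 17.9 CPM (log2 ratio -0.61). The collagen and matrix list had 2 of 77, in Col12a1 and in Col14a1 (-0.72), and the POU list 1 of 39, in Pou2f1. By edgeR, 4 of 118 neural progenitor intervals passed as lower (3.39%, beside 1.26% over all) and 0 as higher. The lowest log2 ratio among these 4 was -1.37, and DESeq2 called 1 lower and 0 higher. At an unadjusted edgeR p under 0.05 stood 5 lower and 8 higher. Of 161 gliogenic and late temporal intervals 4 passed as lower (2.48%) and 0 as higher, with 0 in DESeq2. Of 108 Hox intervals 2 passed as lower and 3 as higher, and of 68 early temporal intervals 0 and 1.

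None was chosen at the genes of 12 lists. These were dorsoventral patterning (0 of 122 eligible intervals), TGF-beta and BMP signalling (0 of 104), Wnt and FGF signalling (0 of 150), early temporal factors (0 of 56), proneural factors (0 of 45), the cell cycle (0 of 55), pluripotency and germline genes (0 of 25), ErbB receptors and neuregulins (0 of 26, since the interval near Erbb4 lay beyond 100 kb), and the marker lists of neural crest (0 of 53), mesoderm and muscle (0 of 25), endothelium and blood (0 of 26) and endoderm (0 of 25). At the share of all eligible intervals most of these lists would hold about 1 interval or fewer, so the zeros are not distinguishable from that share. By edgeR, 1 dorsoventral interval of 151 passed as lower and 7 as higher, beside 652 and 242 of 51637 over all, while DESeq2 called 0 in either direction. Of 41 pluripotency and germline intervals 0 passed in either direction, with 1 lower and 0 higher at an unadjusted p under 0.05 and 0 in DESeq2. Of 204 Wnt and FGF intervals 3 passed as lower, down to a log2 ratio of -1.34, and 4 as higher. DESeq2 called 1 of that list lower and 0 higher.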

How the data were processed

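The authors deposited one table of raw counts, whole fragments per consensus interval in the 6 libraries. Per the file headers these counts were made with featureCounts 2.0.1 on read pairs, with a fragment counted in every interval it overlapped by at least 0.2 of its length. The build is mm10, per the submitters' processing notes. The aligner, peak caller, treatment of duplicates, Tn5 shift and merging of peaks were not given in the sources used here.

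Counts were divided by the column sum to give CPM, and the limits on chromosome, count, overlap and ratio were applied with pandas 2.3.3 (Python 3.11.15). The members and gene lists were chosen with earlier results of these data known. All intervals were compared with edgeR 4.0.16 in R 4.3.3 (filterByExpr, TMM scaling, quasi-likelihood test, Benjamini-Hochberg adjusted p under 0.05), with DESeq2 1.42.0 as an alternative. Both the rule and the test were checked on simulated data. An interval was assigned to the protein-coding gene, of 21900 in RefSeq GRCm38.p6, that holds it or has the nearest end, since that table gives no strand or exons. Shares carry exact (Clopper-Pearson) 95% intervals from scipy 1.17.1, which cover counting error only. Each library was treated as 1 sample. Counts of libraries within a group varied slightly beyond counting error (chi-square divided by its degrees of freedom, 1.04 to 1.10). That excess does not show whether they came from separate cultures.

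Intervals named were the 15 with the lowest ratio, the 5 strongest, those of up to 8 genes with at least 3, those within 1 kb of a gene end, up to 3 per gene list by lowest ratio and the 3 closest pairs, 71 in all, of which some are not reported here. Alternatives were other scalings (TMM, DESeq2 size factors, chromosome medians removed), other limits, other gene sets, leaving out each library, a replicate block, no count filter, and Nr6a1OE 1 and 3 summed to 1 sample.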

Additional observations from a re-analysis of the deposited data

How the results depend on the processing

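The number of intervals chosen follows the limits directly: 839 with a mean mScarlet count of at least 15 and 143 with at least 60, 942 at a log2 ratio of at most -0.4 and 142 at -0.8. It stayed between 371 and 409 under other scalings and without the condition on overlap, was 403 with Nr6a1OE 1 and 3 summed, and was 412 to 507 when 1 library was left out. The mirrored rule for gains gave 30, and 155 with the count limit set on Nr6a1OE, chosen after seeing the data. Of the 380 intervals 182 (47.9%) were chosen in all 6 selections that left out a library. All 71 named intervals kept a negative ratio in each of the alternatives run for them. The rule fixed that sign in advance where a library was left out, since every Nr6a1OE library lay below every control. With a library left out, 61 to 65 were still chosen.

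The share near gene ends was 3.95% within 3 kb (42.0% of eligible intervals). With all RefSeq genes, noncoding ones included, 7.11% lay within 1 kb and 8.95% beyond 100 kb, against 42.8% and 2.41% of eligible intervals. Under the other alternatives these shares moved by less than 1.5 times or within their counting interval.

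The edgeR calls were 395 to 544 lower and 98 to 190 higher when 1 library was left out, lowest without mScarlet 1 in both directions. DESeq2 called 97 lower and 3 higher, with 77 of the 380 intervals among the lower. Replicate numbers did not pair the libraries (correlations of same-numbered deviations 0.011, 0.0020 and -0.0069), and with a replicate block edgeR called 617 lower, 224 higher and 278 of the 380. The cause of these differences was not tested.

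Depth limits the weak intervals: 237 of the 380 had fewer than 60 fragments per mScarlet library on average.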

Other observations

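On chromosome X, which the rule leaves out, 776 intervals held a mean of at least 30 fragments in mScarlet, and 8 of them met the limits on ratio and overlap. On chromosome Y, 0 of 15 did.

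Of the 652 intervals that edgeR called lower in Nr6a1OE, 371 are not among the 380, because they did not reach a ratio of -0.6, the count limit, the overlap condition or the chromosomes of the rule.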
